A study of Mus musculus with 231 samples.

Results

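The microRNA miR-139 was followed as its 2 mature products, mmu-miR-139-5p and mmu-miR-139-3p, in peripheral blood mononuclear cells (PBMC) of mice developing Cbfb-MYH11 leukaemia. Both products were found by name in the training count table, where they are 2 of 1863 mature miRNAs. miR-139 was chosen by its values at month 1, when it was lower in CM mice, so month 1 is described here without a test and only the other months, the changes over time and the separate validation mice are tested.

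CM mice carried a conditional Cbfb-MYH11 knock-in allele together with Mx1-Cre (genotype code CHW) on the C57BL/6 background. The fusion gene was switched on by repeated injection of poly(I:C), a synthetic double-stranded RNA, in young adult animals, and Ctrl littermates received the same injections. The labels describe the Ctrl mice as lacking the transgene and give them the genotype codes CW, HW or WT. The study's methods list among its controls littermates with the knock-in allele and no Mx1-Cre named. What alleles each code stands for is not explained in the labels, so some Ctrl mice may carry the knock-in allele. Mx1-Cre responds to interferon and is not restricted to blood cells, and Ctrl blood had seen poly(I:C) as well. The training cohort comprised 7 CM mice with 53 libraries and 7 Ctrl mice with 76 libraries, sampled before induction (month 0) and then about monthly, to month 10 at the longest, and the number of CM mice with a library fell over the months. Of the CM mice 4 were female and 3 male, and of the Ctrl mice 2 were female and 5 male. A separate validation cohort, by its labels 10 CM and 6 Ctrl mice, was sampled at numbered points, of which point 5 was deeply sequenced in 6 mice per group. Training libraries held 1792809 to 7958411 miRNA counts, validation libraries at point 5 held 1645456 to 5445215 reads, and the other 90 validation libraries held 1744 to 76906. All members of the mature lymphocyte list and of the myeloid list had reads in both groups at every month from 0 to 6, and so did all 7 miRNAs of the erythroid list.

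The labels of one CM mouse (3334) and one Ctrl mouse (3335) gave cause for care. The running numbers in their titles cross over at month 6, so some libraries may carry the other animal's label. The labels were followed, and results whose value or call turned on these mice are also given without both.

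A miRNA gene is transcribed as a hairpin that is trimmed to a short duplex. One or both strands of the duplex are then loaded into an Argonaute protein, where bases 2 to 8 (the seed) pair with target messenger RNAs and lower their output. miR-139 is known as a brake on the growth of several tumours and of leukaemic cells, and the 5p strand is the one usually held to be active. The mouse gene Mir139 lies on the plus strand of chromosome 7, at chr7:108623890-108623957 in mm9 and chr7:101475376-101475443 in GRCm38.p6. In the mm9 annotation it sits within Pde2a, which encodes a cyclic nucleotide phosphodiesterase and is transcribed in the same direction. All 6 annotated Pde2a transcripts span the hairpin, and in all 6 it is intronic. The most common arrangement, in 4 transcripts, places it in an intron of 29902 bases at chr7:108599983-108629884.

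The sequences of the hairpin and of both mature strands (RefSeq, GRCm38.p6) show what was counted. Capitals mark the mature strands in the hairpin and the seeds in the mature strands.
Mir139 hairpin: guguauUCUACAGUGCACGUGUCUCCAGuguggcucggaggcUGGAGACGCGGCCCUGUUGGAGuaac
mmu-miR-139-5p: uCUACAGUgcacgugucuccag
mmu-miR-139-3p: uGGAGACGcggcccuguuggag
The 5p strand occupies bases 7 to 28 of the hairpin and the 3p strand bases 43 to 64, and both are 22 bases long. No other mature miRNA among the 1679 in the reference table carried either seed, so neither strand has a seed family in mouse in that table.

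The 5p strand was by far the more abundant product. Levels are given as CPM, the counts of a miRNA per 1000000 counts of its library, after TMM scaling, in which a trimmed mean of log ratios corrects each library total for composition. Over all training libraries miR-139-5p averaged 995 CPM and miR-139-3p 24.9 CPM. A library held 624 to 18639 counts of the 5p strand and 17 to 338 counts of the 3p strand, so the 3p values carry more counting error. The ratio of 5p to 3p counts had a median of 41.6 and ranged from 10.8 to 74.9.

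**Figure D1:**
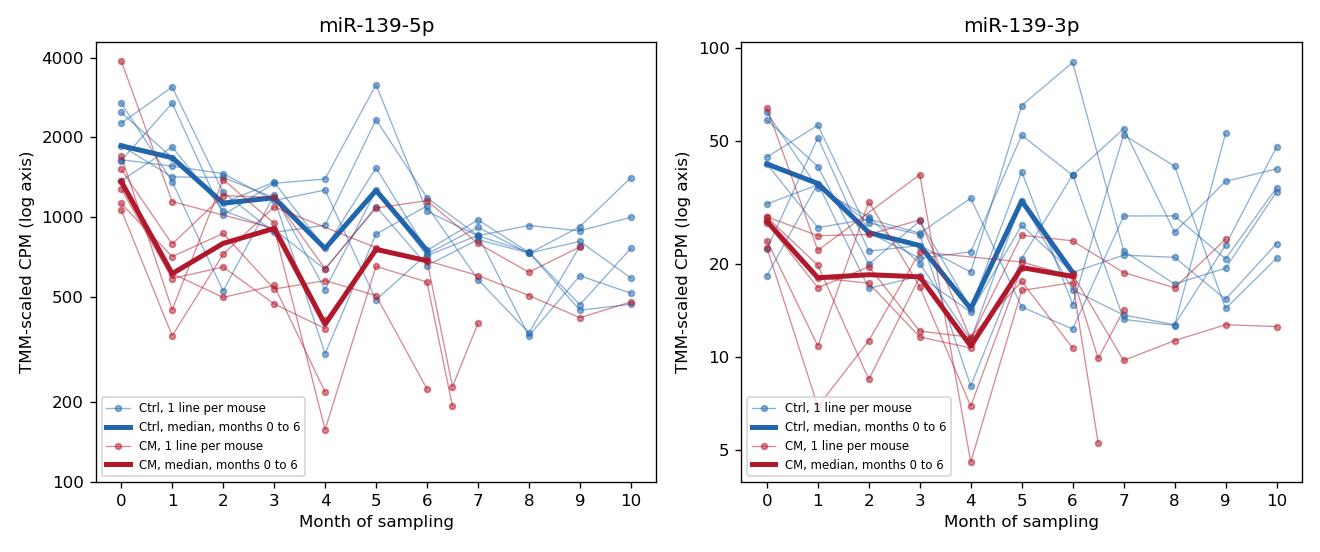
TMM-scaled CPM (log axis) of miR-139-5p (left) and miR-139-3p (right) against the month of sampling, with 1 thin line per mouse and thick lines for the group medians of months 0 to 6. At month 1 the CM mice lie below every Ctrl mouse for both strands, and at months 2 to 6 the groups overlap.

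At month 0, the first sampling, the miR-139 values of the groups overlapped. There the 7 CM mice had 1064 to 3886 CPM of miR-139-5p with a median of 1363, and the 7 Ctrl mice had 1371 to 2695 CPM with a median of 1858. Of the 7 CM mice, 6 lay below the Ctrl median, 4 lay below every Ctrl mouse and 1 lay above every Ctrl mouse. For 3p, 0 CM mice lay below every Ctrl mouse. The highest value of all belonged to CM mouse 3334. The log2 difference, CM minus Ctrl, was -0.24 ± 0.28 (SE, edgeR quasi-likelihood test, adjusted p = 0.738) for 5p and -0.34 with an adjusted p of 0.675 for 3p. Among 478 miRNAs tested at month 0, 0.209% were called (Benjamini-Hochberg adjusted p under 0.05). Without mice 3334 and 3335 the month 0 difference of 5p was -0.68 ± 0.18 with an adjusted p of 0.224 by the same test. In such bulk samples, fewer cells of a type and less RNA per cell cannot be told apart.

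Month 1 is the contrast that chose miR-139. The CM mice had 357 to 1144 CPM of miR-139-5p with a median of 612, and the Ctrl mice had 1361 to 3097 CPM with a median of 1675. No CM value reached the lowest Ctrl value. The 3p strand had 6.90 to 24.6 CPM in CM mice (median 18.01) and 26.2 to 56.2 CPM in Ctrl mice (median 36.4), also without overlap. The fitted log2 differences were -1.58 ± 0.27 (SE) for 5p and -1.27 ± 0.27 for 3p, and CM mice had 0.335 of the Ctrl level of 5p as a ratio of geometric means. Without mice 3334 and 3335 the 5p difference was -1.81. At this month 27.5% of the 472 miRNAs tested were called in either direction, and the groups did not overlap, with CM lower, for 7 of 331 miRNAs averaging at least 10 CPM.

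From month 0 to month 1 miR-139-5p went down in all 7 CM mice, by a mean log2 change of -1.31 ± 0.46 (SD). In the Ctrl mice the mean change was -0.06 ± 0.62 (SD, n = 7), and 4 of 7 went down. CM females had 357 to 709 CPM and CM males 447 to 1144 CPM, and the 2 Ctrl females (1361 and 1417 CPM) lay below the 5 Ctrl males (1556 to 3097 CPM).

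Red cell miRNAs were high in some CM mice at the same month. The summed level of the 7 erythroid miRNAs was 53405 to 622569 CPM in CM mice and 28313 to 69679 CPM in Ctrl mice. The 2 CM mice with the highest sums, 3336 and 3368, also had the lowest miR-139-5p (357 and 447 CPM). In the other 5 CM mice the erythroid sum was 53405 to 90962 CPM, and their miR-139-5p was 586 to 1144 CPM, beside 1361 CPM in the lowest Ctrl mouse. The part of red cell content in the month 1 values, which chose miR-139, was not tested. Taking the erythroid miRNAs out of the table changes the library totals and scaling but does not adjust for red cell content. The log2 difference of 5p at month 1 was then -1.48. The titles also carry a G number from 1 to 7 whose meaning the labels do not give. At month 1 only 3 G numbers held both groups. Within them the log2 difference of 5p ran from -1.60 (1 CM and 1 Ctrl library) to -1.04 (2 CM and 3 Ctrl libraries).

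At months 2 to 6 both strands were lower in CM mice on average, but no single month passed the test. At month 2 the 6 CM mice had 498 to 1386 CPM of 5p (median 795) and the 7 Ctrl mice 526 to 1459 CPM (median 1129), a log2 difference of -0.35 ± 0.26 (SE, edgeR adjusted p = 0.360). The CM median was above that of month 1 and the Ctrl median below it, and the groups overlapped. In the same month 13.5% of 481 miRNAs were called.

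At month 3, CM mice had 470 to 1185 CPM of 5p (median 905) and Ctrl mice 875 to 1354 CPM (median 1182). Of the 7 CM mice 3 lay below every Ctrl mouse. The log2 difference was -0.44 ± 0.22 (SE, edgeR adjusted p = 0.163), in a month when 22% of 455 miRNAs were called. The limma test on the deposited CPM gave -0.61 with an adjusted p of 0.0366, so the call for 5p at month 3 turned on the table and test used. The 3p strand showed no clear direction, at -0.06 (edgeR adjusted p = 0.927), and its sign changed in several alternative fits.

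Month 4 held the lowest CM medians of both strands among months 0 to 6, with 10.8 CPM for 3p. The 6 CM mice had 158 to 638 CPM of 5p (median 393) and the 7 Ctrl mice 305 to 1392 CPM (median 761). All 6 CM mice lay below the Ctrl median, and 2 lay below every Ctrl mouse. The log2 difference was -1.04 ± 0.38 (SE) for 5p with an edgeR adjusted p of 0.165, and -0.83 ± 0.34 for 3p with an adjusted p of 0.241. Only 0.837% of 478 miRNAs were called that month. In a single fit over all training libraries, which shares the estimate of the spread, 5p was called at month 4 (-1.07, edgeR adjusted p = 0.0148). Without mice 3334 and 3335 its difference was -0.72 with an adjusted p of 0.344.

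At month 5 the 5 CM mice had 506, 651, 755, 767 and 1082 CPM of 5p, and the 7 Ctrl mice had 486 to 3159 CPM with a median of 1261. All 5 CM mice lay below the Ctrl median but within the Ctrl range. The log2 differences were -0.98 ± 0.38 (SE) for 5p and -0.82 ± 0.32 for 3p, both with an edgeR adjusted p of 0.180. No miRNA was called at month 5 (0% of 505), with 21.6% at an unadjusted p under 0.05, whereas DESeq2 called 24 miRNAs and limma called 0.

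At month 6 the 5 CM mice had 225, 569, 684, 686 and 1153 CPM of 5p, against 656 to 1183 CPM in the 7 Ctrl mice (median 748). CM mice 3341 and 3334 lay below every Ctrl mouse. The differences were -0.47 ± 0.33 (SE, edgeR adjusted p = 0.713) for 5p and -0.95 ± 0.50 (adjusted p = 0.706) for 3p. Again 0% of 444 miRNAs were called by edgeR, with 31 at an unadjusted p under 0.05, and DESeq2 and limma also called 0.

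**Figure D2:**
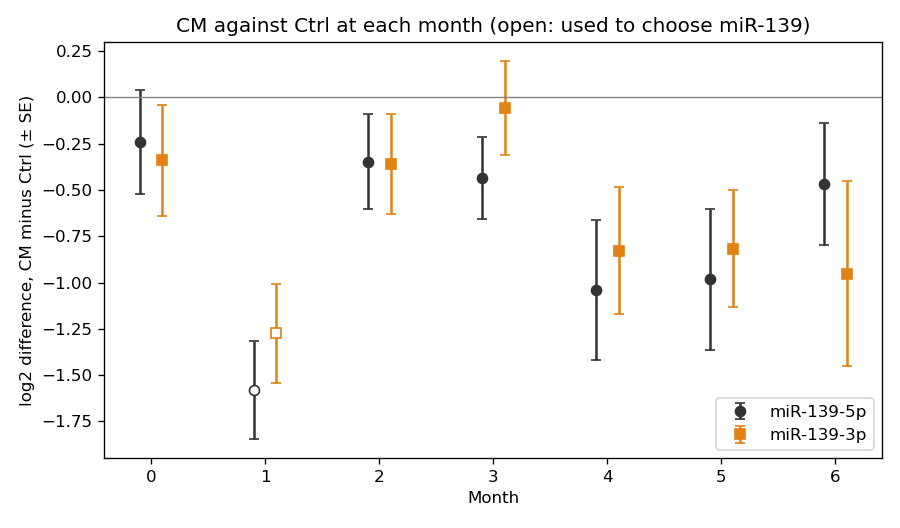
Log2 difference between CM and Ctrl mice at each month for miR-139-5p (circles) and miR-139-3p (squares), with SE bars from the edgeR fit of that month. The open symbols at month 1 are the values that chose miR-139, and at every other month the differences are between -1.04 and -0.06 with no strand past the threshold.

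Some erythroid and progenitor miRNAs were also called higher in CM mice at some of these months. By the edgeR test 4 of 7 erythroid miRNAs were higher at month 2 and 6 of 7 at month 3, with median log2 differences of 1.12 and 1.07. Of the 7 progenitor miRNAs 4 were higher at month 2, 2 at month 3 and 2 at month 4, with median log2 differences of 1.00, 0.56 and 0.03. Among all miRNAs tested, 13.5%, 22% and 0.837% were called at months 2, 3 and 4, and the progenitor count at month 3 is near that share. The erythroid sum was 14772 to 50396 CPM in CM and 13158 to 28400 CPM in Ctrl mice at month 2, and 48074 to 97143 CPM and 37410 to 62759 CPM at month 3. Over months 4, 5 and 6 the erythroid list had median log2 differences of 0.52, 0.96 and 0.0074, with 0 of 7 called by edgeR in each and 2, 6 and 0 of 7 at an unadjusted p under 0.05. The part of these cells in the miR-139 values of months 2 to 6 was not tested.

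The groups also differed in their share of females. At month 2 the 4 CM females had 498 to 867 CPM of 5p and the 2 CM males 1205 and 1386 CPM, while the Ctrl females had 526 and 1411 CPM and the Ctrl males 1018 to 1459 CPM. At month 4 the CM females had 219 to 576 CPM and the Ctrl females 305 and 533 CPM, and the CM males had 158 to 638 CPM and the Ctrl males 635 to 1392 CPM. The 2 CM males of month 2 lay within the range of the Ctrl males, and the ranges of CM and Ctrl mice overlapped in both sexes at both months.

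Averaging each mouse over months 2 to 6 uses the repeated samples and none of the libraries that chose miR-139, although the mice are the same. Every Ctrl mouse had a library at all 5 months, whereas CM mice 3338 and 3357 had only months 2 to 4, mouse 3334 had no library at month 2 and mouse 3336 none at month 4. The mouse means of miR-139-5p, as log2(CPM + 1), were 8.62 to 10.00 in CM mice and 9.63 to 10.50 in Ctrl mice. Of the 7 CM mice 5 lay below every Ctrl mouse. The group means were 9.24 ± 0.51 (SD, n = 7) and 9.97 ± 0.32 (SD, n = 7), a difference of -0.73 (two-sided exact permutation test, p = 0.0105, adjusted over 7 tests p = 0.0367). The 3p strand differed by -0.57 (exact permutation p = 0.00408, adjusted p = 0.0286), with 6 of 7 CM mice below every Ctrl mouse. Both p-values were adjusted over the 7 tests of miR-139 alone, whereas the monthly tests were adjusted over all miRNAs tested. How many of all miRNAs would pass the same mouse-mean test is not known here, so these calls have no background share beside them. In tests added after seeing the data, both calls were kept when the mean of all libraries of a month was subtracted before averaging (-0.73 and -0.54, exact permutation test, adjusted p = 0.0245 for both), and both were lost when the groups were compared within each sex (-0.61 and -0.49, exact permutation test, adjusted p = 0.0625 for both). CM females had mouse means of 8.62 to 9.65 for 5p and the Ctrl females 9.63 and 9.76, and CM males had 8.91 to 10.00 and Ctrl males 9.73 to 10.50. Both calls were lost without mice 3334 and 3335, with differences of -0.69 and -0.59 (exact permutation test, adjusted p = 0.0909 for both). They were also lost when the median over months replaced the mean (exact permutation test, adjusted p = 0.0632 for both). Leaving out 1 mouse ended the call for 5p for CM mice 3334, 3338, 3341 and 3357 and Ctrl mice 3339, 3342 and 3346 (exact permutation test, adjusted p = 0.0734 each). It ended the call for 3p for the same mice other than 3339 (adjusted p = 0.0571 each). Unadjusted, the exact permutation p stayed at or below 0.0210 for 5p and 0.00816 for 3p in all 14 such tests. Within each of the 7 G numbers, CM libraries of months 2 to 6 were lower on average than Ctrl libraries for both strands. The differences were -1.45 to -0.14 for 5p and -0.86 to -0.17 for 3p, after each month's Ctrl mean was subtracted. A G number held 2 to 6 CM and 3 to 7 Ctrl libraries. The same mice recur across G numbers, so these differences are a description and not separate replicates. How many of all miRNAs show the same pattern is not known here.

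Counted against their own month 0, the mice of the groups were not shown to differ. From month 0 to the mean of months 2 to 6, miR-139-5p changed by -1.35 ± 0.87 (SD, n = 7) in CM mice and by -0.95 ± 0.49 (SD, n = 7) in Ctrl mice on the log2 scale. Every mouse of both groups went down. The difference between groups was -0.40 (exact permutation p = 0.329, adjusted p = 0.384), and -0.10 without mice 3334 and 3335. For the 3p strand the difference was -0.28 (exact permutation p = 0.466). The change from months 2 and 3 to months 5 and 6 was -0.53 ± 0.35 (SD) in 5 CM mice and -0.05 ± 0.64 in 7 Ctrl mice for 5p, a difference of -0.48 (exact permutation p = 0.167, adjusted p = 0.289). The smallest p that this comparison of 5 with 7 mice allows is 0.00253.

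**Figure D3:**
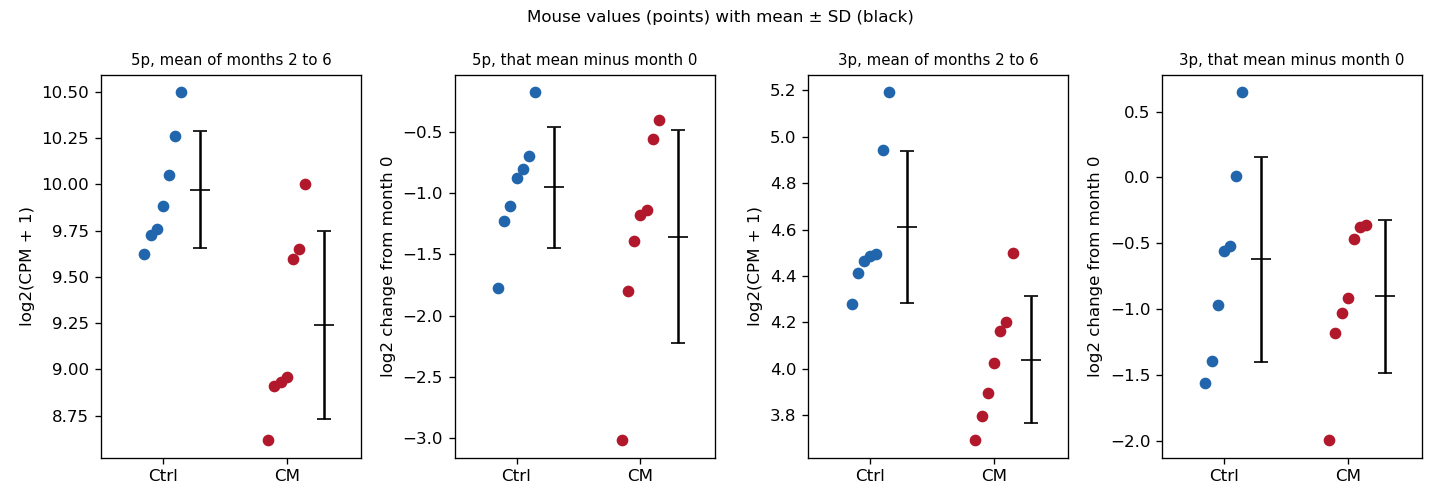
Values of single mice (points) with the group mean ± SD (black) for the mean log2(CPM + 1) of months 2 to 6 and for that mean minus the mouse's own month 0 value, for each strand. CM mice are lower in the means of months 2 to 6, while the changes from month 0 overlap, with CM mouse 3334 the lowest.

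miR-139-5p fell with time in Ctrl mice too. From month 0 to month 3 it fell by 0.82 ± 0.16 on the log2 scale (SE, edgeR adjusted p = 0.00571) in the Ctrl mice, a contrast in which 8.8% of 466 miRNAs were called. By month 6 it fell by 1.14 ± 0.22 (SE, edgeR adjusted p = 0.00226, 20.5% of 474 called). By month 10 it fell by 1.25 ± 0.26 (SE, edgeR adjusted p = 0.00296, 26.8% of 477 called). All 7 Ctrl mice were below their own start at months 6 to 9, and all 6 were at month 10. At month 10 the Ctrl mice had 469 to 1407 CPM, with a median of 675.

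In CM mice the change from month 0 to month 3 was -1.01 ± 0.32 for 5p (SE, edgeR adjusted p = 0.0773), with 5.81% of 465 miRNAs called. DESeq2 called it, with an adjusted p of 0.0373, and the fit with the mouse as a replicate block gave -0.96 with an edgeR adjusted p of 0.0652. The change from month 0 to 3 was not shown to differ between CM and Ctrl mice (-0.19 ± 0.37, SE, edgeR adjusted p = 0.819, 2.33% of 515 called), and its sign turned without mice 3334 and 3335 (0.17).

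By the last library of each CM mouse, taken between month 4 and month 10, miR-139-5p had fallen by 2.07 ± 0.36 on the log2 scale from month 0 (SE, edgeR adjusted p = 0.000882), and by 2.01 with the mouse as a replicate block (edgeR adjusted p = 0.00666). In this contrast 39% of 446 miRNAs were called. The 3p strand fell by 1.22 ± 0.32 (SE, edgeR adjusted p = 0.00840). Without mouse 3334, miR-139-5p fell by 1.63 and miR-139-3p fell by 0.83, both still called (edgeR adjusted p = 0.00190 and 0.0211).

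The last libraries differed in how far they lay from Ctrl blood of the same month. The 7 last values of 5p were 219 CPM (mouse 3338, month 4), 380 CPM (3357, month 4), 225 CPM (3341, month 6), 193 CPM (3334, month 6.5), 397 CPM (3336, month 7), 772 CPM (3370, month 9) and 478 CPM (3368, month 10). Of these, 4 were below every Ctrl library of the same month, with the library of month 6.5 set against months 6 and 7, and all 7 were below the Ctrl median. The last value of mouse 3370 was 0.993 of the Ctrl median. That of mouse 3334 was 0.227 of it. For the 3p strand, 3 of the 7 last values were below every Ctrl library and 6 were below the Ctrl median. The 3p value of mouse 3370 was 1.16 of the Ctrl median. How many of all miRNAs show as many last values below Ctrl is not known here, so these counts have no background share beside them.

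**Figure D4:**
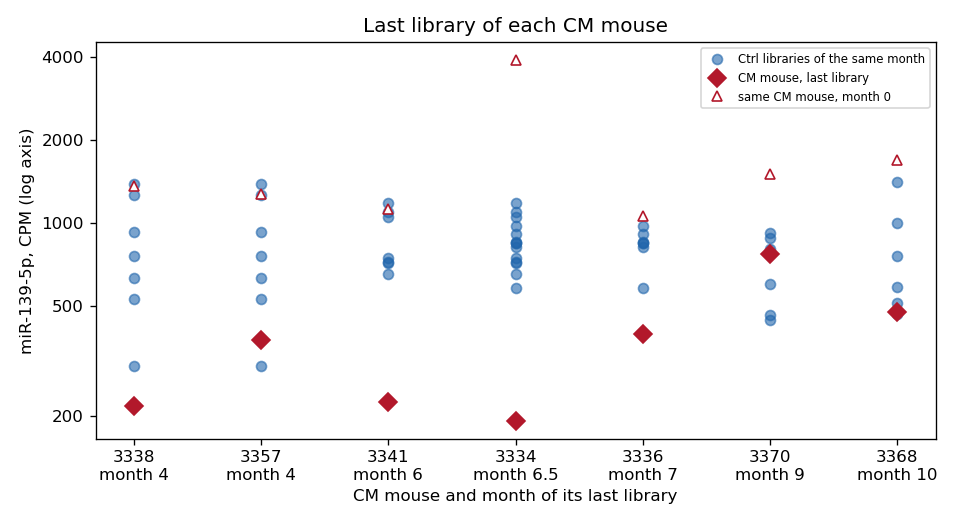
miR-139-5p in CPM (log axis) in the last library of each CM mouse (diamonds), in the same mouse at month 0 (open triangles) and in Ctrl libraries of the same month (circles). The last libraries of mice 3338, 3341, 3334 and 3336 lie below all their Ctrl libraries, while those of 3357, 3370 and 3368 lie within the Ctrl range.

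The strands of the hairpin did not keep a fixed ratio. In Ctrl mice the 3p strand changed by -0.83 ± 0.25 by month 3 (SE, edgeR adjusted p = 0.0499), a call lost with the mouse as a replicate block (-0.72, edgeR adjusted p = 0.0996). By months 6 and 10 its changes from month 0 were -0.20 (edgeR adjusted p = 0.824) and -0.15 (adjusted p = 0.720). The median ratio of 5p to 3p in Ctrl mice went from 51.1 at month 0 through 49.2 (month 3) and 35.0 (month 6) to 23.6 (month 10). The ratio was lower than at month 0 in 5 of 6 Ctrl mice at month 10, with a mean log2 change of -1.21 ± 0.73 (SD). In all 7 CM mice it was lower at the last library, by -0.85 ± 0.27 (SD). These changes of the ratio were looked at after the values were seen and carry no test. Between groups, the log2 ratio averaged over months 2 to 6 differed by -0.14 (exact permutation p = 0.206, adjusted p = 0.289).

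Ordered by the median level of 5p over months 0 to 6, Ctrl mice at months 0 and 1 came first (1858 and 1675 CPM), followed by CM mice at month 0 (1363 CPM), Ctrl mice at months 5, 3 and 2 (1261, 1182 and 1129 CPM) and CM mice at month 3 (905 CPM). Next were CM mice at month 2 (795 CPM), Ctrl mice at month 4 (761 CPM), CM mice at month 5 (755 CPM), Ctrl mice at month 6 (748 CPM) and CM mice at months 6, 1 and 4 (684, 612 and 393 CPM). The ranges of neighbours in this order overlapped at every step.

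In the validation cohort the groups overlapped for both strands. At point 5 CM mice 2690, 2708, 2719 and 2731 had no library, while all 6 Ctrl mice had one. The comparison thus covers only the CM mice with a library at that point. At point 5 the CM mice had 3952, 5362, 11675, 13070, 13437 and 21388 CPM of 5p on the deposited validation scale, and the Ctrl mice had 9116, 10392, 11251, 13047, 13226 and 17868 CPM. The CM values spread on both sides of the Ctrl values, with the lowest pair and the highest value of all 12 mice. The difference was -0.30 ± 0.36 (SE, limma on log2(CPM + 1), adjusted p = 0.955) for 5p and -0.19 ± 0.31 (adjusted p = 0.979) for 3p. No miRNA was called there (0% of 930 by limma, 54 at an unadjusted p under 0.05, and 0 by edgeR on recovered reads). The validation CPM is on another scale than the training CPM, so levels are not compared between cohorts, but the median ratio of 5p to 3p reads was 35.8 in CM and 35.2 in Ctrl mice.

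At the other validation points the depth could not show miR-139. Of 90 libraries, 23 held any read of the 5p strand and 9 any read of the 3p strand, and no library held more than 4 reads of 5p or 1 read of 3p. A level was therefore not measurable in these libraries, and no comparison was made.

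**Figure D5:**
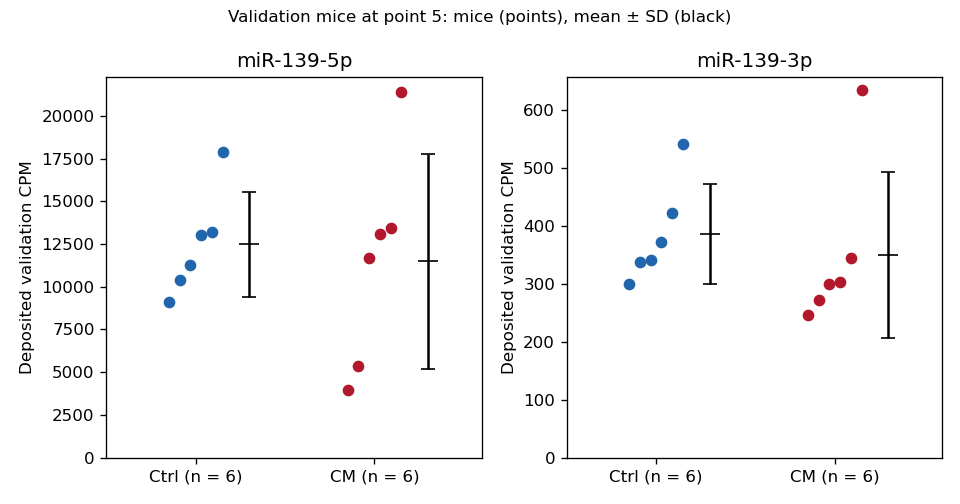
Deposited validation CPM of miR-139-5p (left) and miR-139-3p (right) in 6 Ctrl and 6 CM mice at point 5, with points for mice and the mean ± SD in black. The CM mice span 3952 to 21388 CPM of 5p, around the Ctrl range of 9116 to 17868 CPM.

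The miRNAs most like miR-139-5p were ranked by Pearson's r of log2(CPM + 1) over all training libraries among 330 other miRNAs averaging at least 10 CPM. These libraries share mice, months and a common scaling, so r is a description. The highest were mmu-miR-574-3p (0.88), mmu-miR-149-5p (0.86), mmu-miR-1249-3p (0.80), mmu-miR-139-3p (0.79) and mmu-miR-500-3p (0.70). The other strand of the same hairpin thus stood among the 5 most alike. After subtraction of each group and month mean, r was 0.80 for miR-574-3p, 0.81 for miR-149-5p and 0.70 for miR-139-3p, but 0.40 for miR-500-3p. The lowest were mmu-miR-185-3p (-0.69), mmu-miR-674-5p (-0.68) and mmu-miR-106b-3p (-0.67).

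Between CM and Ctrl mice, miR-574-3p differed by -0.34, -0.06, -1.26, -0.69 and -0.34 on the log2 scale at months 2 to 6 in order, and miR-149-5p by -0.52, -0.10, -0.85, -0.92 and 0.16, none of them called by edgeR. The difference of miR-1249-3p was -0.89 at month 2 (edgeR adjusted p = 0.00728), then -0.72, -1.27, -1.02 and -0.65. For miR-500-3p it was -1.28 at month 2 and -1.31 at month 3 (edgeR adjusted p = 0.00291 and 0.00692), then -1.14, -0.996 and -0.65. Apart from the values whose p is given, none passed the test, and whether these miRNAs differ from miR-139-5p in their course was not tested. In the last CM libraries miR-574-3p had changed by -2.62 from month 0 and miR-149-5p by -1.56 (edgeR adjusted p = 0.000567 and 0.0116). In Ctrl mice at month 10 they had changed by -1.21 and -1.01 (edgeR adjusted p = 0.00164 and 0.00635).

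Among 16 other miRNAs known as suppressors in leukaemia, 15 were tested in the training months. At month 2, 2 were lower in CM mice: mmu-miR-34a-5p, which p53 induces, at -1.11 ± 0.17 (SE, edgeR adjusted p = 0.00201), and mmu-miR-145a-5p, a miRNA of vessel wall cells, at -1.02 ± 0.25 (adjusted p = 0.0169). At month 3, mmu-miR-150-5p (-0.70) and mmu-miR-146a-5p (-0.42) were lower, and mmu-miR-223-3p (0.74), the main miRNA of granulocytes, and mmu-miR-193b-3p (0.77) were higher (edgeR adjusted p of 0.0222, 0.0414, 0.0122 and 0.0414 in that order). None of the 15 was called by edgeR at months 0, 4, 5 or 6, with 2, 1, 3 and 2 at an unadjusted p under 0.05. For miR-34a-5p the differences at months 3 to 6 were -0.56, 1.34, -0.34 and -0.26, none called by edgeR. In the last CM libraries against month 0, 4 of the 15 were called higher and 3 lower, beside 39% of all miRNAs. There miR-34a-5p was higher, at 1.98 (edgeR adjusted p = 0.00814). The 2 of 15 called at month 2 and the 4 of 15 at month 3 stand beside 13.5% and 22% of all miRNAs, so these counts are near the background. The median log2 difference of the list was -0.30 at month 2 and -0.15 at month 3, beside -0.02 and 0.07 over all miRNAs tested. Against month 0, miR-223-3p changed in Ctrl mice by -1.18, -1.36 and -1.26 at months 3, 6 and 10. The edgeR adjusted p was 0.00014, 3.4e-05 and 0.0018 in that order. In the last CM libraries it had changed by -1.60 (edgeR adjusted p = 0.0093).

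Of the 4 mature lymphocyte miRNAs, 1 was called lower in CM mice at month 3, beside 22% of all miRNAs tested. The median log2 difference of the list was -0.28 there. At months 0, 2, 4, 5 and 6 edgeR called 0 of the list, with 1, 1, 0, 0 and 0 at an unadjusted p under 0.05. Among all miRNAs tested, 0.209%, 13.5%, 0.837%, 0% and 0% were called at those months. The summed level of the 4 mature lymphocyte miRNAs at month 3 was 24147 to 55032 CPM in CM mice and 53089 to 92081 CPM in Ctrl mice. At month 4 it was 7703 to 58529 CPM and 17987 to 92343 CPM. At month 0 the ranges were 29799 to 69761 CPM and 35820 to 67988 CPM. Against month 0, 3 of the 4 were called lower in the last CM libraries and 3 in Ctrl mice at month 10 (edgeR). In these contrasts 39% and 26.8% of all miRNAs tested were called. The 2 myeloid miRNAs had median log2 differences of 0.53, 0.49, -0.19, -0.37 and 0.05 at months 2 to 6. Of them 1 was called higher at month 3 (edgeR), beside 22% of all miRNAs. Their sum was 39990 CPM in CM mouse 3334 at month 0 (group median 9138). Ctrl mice 3342 and 3346 had 26567 and 24697 CPM at month 1 (group median 6681), and 27361 and 22684 CPM at month 5 (group median 5556). These libraries had the highest miR-139-5p of their group and month. Whether the makeup of the blood has a part in the miR-139 values was not tested.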

How the data were processed

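Small RNA libraries from PBMC were prepared by the submitters with a TruSeq small RNA protocol. According to the study's methods, reads were trimmed with cutadapt, aligned with Bowtie and counted over mature miRNAs of miRBase, and the authors scaled counts with edgeR's TMM method. The methods name mm9 and the labels GRCm38, which was not settled here. The deposited training table holds raw counts per mature miRNA. Both deposited CPM tables were treated as a scaled signal, since 1 read has a fixed worth in each library, and reads recovered from them were whole for 100% of values within 0.1 read. There are 1895 miRNAs with training CPM and 1863 with training counts, and the log2 levels of each strand in both tables had an r of 0.99 over libraries. Members and lists were chosen with earlier results of these data known.

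Training counts were tested month by month, and between months, with edgeR's quasi-likelihood test (edgeR 4.0.16, R 4.3.3) after filterByExpr and TMM scaling, and adjusted by the Benjamini-Hochberg method over all miRNAs tested. For validation point 5, limma 3.58.1 with an intensity trend was fitted to the log2 of CPM plus a pseudocount of 1, keeping miRNAs at 1 CPM or more in as many libraries as the smaller group holds. Mouse means were compared by two-sided exact permutation tests (scipy 1.17.1) and adjusted over 7 tests. Alternatives used DESeq2 1.42.0, other scalings, filters and covariates, and left out each mouse in turn. The fits were tested on simulated data with known changes. Named miRNAs were the members, the 5 with the highest and the 3 with the lowest r, and the suppressor list. Repeated months came from the same animals, which pairs them. The correlation of same-mouse deviations had a median of 0.018 in CM and 0.052 in Ctrl mice between months 0 and 3. Library depth ranged from 1792809 to 7958411 counts in training, and counting error is smallest for the 5p strand.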

Additional observations from a re-analysis of the deposited data

Results flagged for a closer look

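In 74 groups of 5 to 7 mice checked with Dixon's test, 7 had a value far from the others, where chance alone flags about 1 group in 20. CM mouse 3334 stood far above the other CM mice at month 0 for both strands, with 3886 CPM of miR-139-5p (group median 1363) and 63.97 CPM of miR-139-3p (group median 27.4). This is the mouse whose titles cross over with those of 3335, and its month 0 value enters the changes from month 0. Ctrl mouse 3349 had a low 5p to 3p ratio of 18.6 at month 2 (group median 52.04). Ctrl mouse 3342 had a high ratio of 74.02 at month 4 (group median 45.5), and at month 6 it had the highest 3p level of all training libraries, 89.7 CPM against a group median of 18.7. Ctrl mouse 3350 had the lowest 5p level of its group at month 7, 581 CPM (group median 851). In the validation cohort, CM mouse 2700 had 636 CPM of 3p at point 5 (group median 302). The cause of these values was not tested.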

How the results depend on the processing

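Of 289 alternative values for 35 results, leaving out single mice aside, 268 were counted as kept, 12 were no longer called, 4 became called and 5 changed sign. A kept value had the same direction and side of the threshold, except at month 1, where no threshold was applied. There a value was kept if the difference held its direction and moved by less than the SD between mice within groups. The month 3 difference of 5p became called with limma on deposited CPM (-0.61), and that of month 4 in the fit over all libraries (-1.07, or -1.11 with the G number). The month 3 difference of 3p (-0.06) turned positive with raw library sizes (0.0087), sex (0.023), the G number (0.71) or all libraries with the G number (0.16), and ran from -0.29 to 0.051 as single mice were left out. The change of 5p in CM mice to month 3 was called by DESeq2 (-1.03) and ran from -1.20 to -0.72 without single mice. That of 3p in Ctrl mice lost its call with the mouse as a replicate block (-0.72), raw library sizes (-0.87), no filter (-0.82) or without 3335 (-0.86), and ran from -0.94 to -0.66. The mouse as a replicate block changed no other call of either strand. The 3p changes in Ctrl mice to month 6 and month 10 ran from -0.85 to 0.044 and from -0.25 to 0.061. The difference of the change to month 3 in 5p ran from -0.41 to 0.074, and was 0.17 without 3334 and 3335. The mouse means of months 2 to 6 lost their call without 3334 and 3335 (-0.69 for 5p, -0.59 for 3p), with the median (-0.70, -0.47) and, in tests added after seeing the data, without month 4 (-0.63, -0.52) or within each sex (-0.61, -0.49), and ran from -0.86 to -0.63 for 5p and from -0.65 to -0.47 for 3p. Reads recovered from the training CPM were also added after seeing the data. The G number could not be fitted at month 4. The share of miRNAs called ranged over these fits from 2.12% to 31.4% at month 1, 0% to 22.2% at month 2, 1.32% to 27.8% at month 3, 0% to 8.59% at month 4, 0% to 10.4% at month 5, 0% to 2.33% at month 6, and 0% to 3.2% for the difference of the changes. Against month 0 it ranged from 1.08% to 8.06% in CM and 1.38% to 12.9% in Ctrl mice at month 3, 12.2% to 39% in the last CM libraries, and 4.15% to 20.5% and 6.6% to 33.3% in Ctrl mice at months 6 and 10. At month 1, described without a test, the difference of 3p was -1.10 with the G number as a covariate and -1.27 without it. The causes were not tested. Depth limits the 3p strand most, with as few as 17 counts in a library.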
